A study of Homo sapiens with 6 samples.

Results

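Homologous recombination, Fanconi anaemia and mismatch repair genes, together with the checkpoint kinases that answer to damaged or stalled DNA, were examined in KGN cells, a human granulosa-like line from an ovarian granulosa cell tumour. The genes were a list of 39 symbols, and all 39 were among the 16626 genes of the expression table. The study has 6 libraries. Those of the control group, OE-NC (3 libraries, genotype WT), and those overexpressing the X-linked transcription factor SOX3, OE-SOX3 (3 libraries), came from the same line. The labels give no vector, no culture time and no word on clones or on separate cultures, so the p-values reflect the spread among these libraries alone, and that spread may be technical. SOX3 itself was at 0.0756, 0.141 and 0.0254 FPKM in OE-NC and 14.3, 13.7 and 14.4 FPKM in OE-SOX3.

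Homologous recombination repairs broken DNA by copying an intact sister duplex. The proteins MRE11, RAD50 and NBN bind and trim the broken end, RBBP8 helps to start the trimming and EXO1 extends it, and BRCA1, PALB2 and BRCA2 then prepare the strand for exchange with the help of RAD51B, RAD51C, RAD51D, XRCC2 and XRCC3. Fanconi anaemia proteins unhook crosslinked strands, for which a core complex and the E2 enzyme UBE2T attach ubiquitin to FANCD2 and FANCI. Mismatch repair corrects copying errors, and ATM and ATR are the kinases that report breaks and exposed single strands to CHEK2 and CHEK1. Many of these genes are most active in cells that are replicating their DNA.

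Promoter stretches of 5 genes are shown because they set forms of the E2F letters, or none of them, beside different changes in expression: EXO1, FANCD2 and XRCC2 fell in OE-SOX3 cells, PMS2 did not pass the test, and ATM rose. Each runs 5′ to 3′ on the strand of the gene, from 120 bases before the annotated start to 30 bases from it (RefSeq, GRCh38.p14). Capitals mark letters that E2F factors, activators of genes needed for replication, are known to bind, on either strand. The positions are chr1:241848084-241848233 (plus strand), chr3:10026317-10026466 (plus), chr7:152676112-152676261 (minus), chr7:6009077-6009226 (minus) and chr11:108222947-108223096 (plus).
EXO1: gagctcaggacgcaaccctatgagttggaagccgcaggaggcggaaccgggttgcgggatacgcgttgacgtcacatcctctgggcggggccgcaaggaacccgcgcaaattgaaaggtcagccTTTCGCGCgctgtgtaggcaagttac
FANCD2: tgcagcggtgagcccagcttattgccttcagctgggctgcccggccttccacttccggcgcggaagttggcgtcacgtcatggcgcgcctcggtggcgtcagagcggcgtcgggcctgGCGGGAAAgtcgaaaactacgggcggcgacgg
XRCC2: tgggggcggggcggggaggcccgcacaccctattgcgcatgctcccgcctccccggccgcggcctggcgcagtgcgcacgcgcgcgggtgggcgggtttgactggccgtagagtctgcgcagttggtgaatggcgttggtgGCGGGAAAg
PMS2: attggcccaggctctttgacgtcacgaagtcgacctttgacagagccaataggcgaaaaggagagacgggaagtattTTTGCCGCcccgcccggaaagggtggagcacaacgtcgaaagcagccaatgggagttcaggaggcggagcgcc
ATM: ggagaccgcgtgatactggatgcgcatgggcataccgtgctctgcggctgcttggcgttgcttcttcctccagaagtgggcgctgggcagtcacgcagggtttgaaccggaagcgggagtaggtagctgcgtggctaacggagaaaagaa
The stretch of ATM holds no match. Most genes without a match fell too, as given below with the promoters.

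Expression was read as FPKM, reads scaled to gene length and to the library total, with 18039929 to 20335307 reads per library. Every one of the 39 genes reached the minimum for testing, a mean of 1 FPKM in either group, which 11131 genes met. XRCC2, RAD51B and FANCB reached it only in OE-NC, the group where they were higher, so only a fall could bring them into the test. A gene is said to rise or fall where its adjusted p in limma was under 0.05. Log2 fold changes are on the log2(FPKM + 1) scale, which understates the change of low genes. OE-NC 1 stood apart from OE-NC 2 and 3, with correlations of 0.986 and 0.985 across tested genes, against 0.998 between the latter. Of the granulosa markers, NR5A1 was at 15.7 ± 1.43 and 15.3 ± 0.926 FPKM and FOXL2 at 3.23 ± 0.515 and 4.85 ± 0.215 FPKM in OE-NC and OE-SOX3 (SD, n = 3 per group). NR5A1 did not pass, and the other tested granulosa markers rose: FOXL2 (limma adjusted p = 0.00328), INHA from 0.215 to 1.38 FPKM (limma adjusted p = 0.00104) and GATA4 from 0.349 to 1.09 FPKM (limma adjusted p = 0.000134). INHA and GATA4 reached a mean of 1 FPKM only in OE-SOX3, so only a rise could bring them into the test. FSHR was not among the genes of the expression table. CYP19A1 and WT1, too low to be tested, went from 0.273 to 0.925 FPKM and from 0.0187 to 0.673 FPKM, and AMHR2 from 0.245 FPKM to being listed at 0. What part this has in the values of the repair genes was not tested. The leukocyte markers summed to under 1 FPKM in each library.

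The repair and checkpoint genes were mostly lower in OE-SOX3 cells. Of the 39, 33 fell, where 36.1% of all tested genes did, and 1 rose, where 32.9% did (69.1% in either direction). The other 5 did not pass. XRCC2, RAD51B and FANCB are among those that fell, and only a fall could bring them into the test. Every OE-SOX3 library lay below every OE-NC library for 34 of the 39 (39.5% of tested genes) and above for 1 (36.5%). At least 2-fold on the log2(FPKM + 1) scale, 16 of the 39 fell (6.58% of tested genes) and 0 rose (5.53%). The median log2 fold change was -0.84, beside -0.03 for all tested genes. ATM was the gene that rose. In RNA from a whole culture, fewer cells of a given cycle phase and less RNA per cell cannot be told apart.

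Markers of the cell cycle moved with these genes. All 14 S phase markers fell, summing to 881 to 900 FPKM in OE-NC and 196 to 197 FPKM in OE-SOX3. The 10 G2/M markers fell too, with sums of 703 to 763 FPKM in OE-NC and 395 to 404 FPKM in OE-SOX3. Of 13 genes for E2F factors and pocket proteins, 9 fell, 3 rose and 1 did not pass. Over all tested genes, 36.1% fell and 32.9% rose. Stromal markers, mostly COL1A1, summed to 344 to 357 FPKM in OE-NC and 1826 to 1968 FPKM in OE-SOX3. Epithelial markers summed to 160 to 178 FPKM in OE-NC and 46.7 to 49.9 FPKM in OE-SOX3, a sum set mainly by KRT18, which fell from 142 to 26.5 FPKM, while KRT8 fell from 24.98 to 20.9 FPKM. Endothelial markers summed to 4.99 to 6.202 FPKM in OE-NC and 4.84 to 5.11 FPKM in OE-SOX3. What part these shifts have in the values of the repair genes was not tested.

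**Figure D1:**
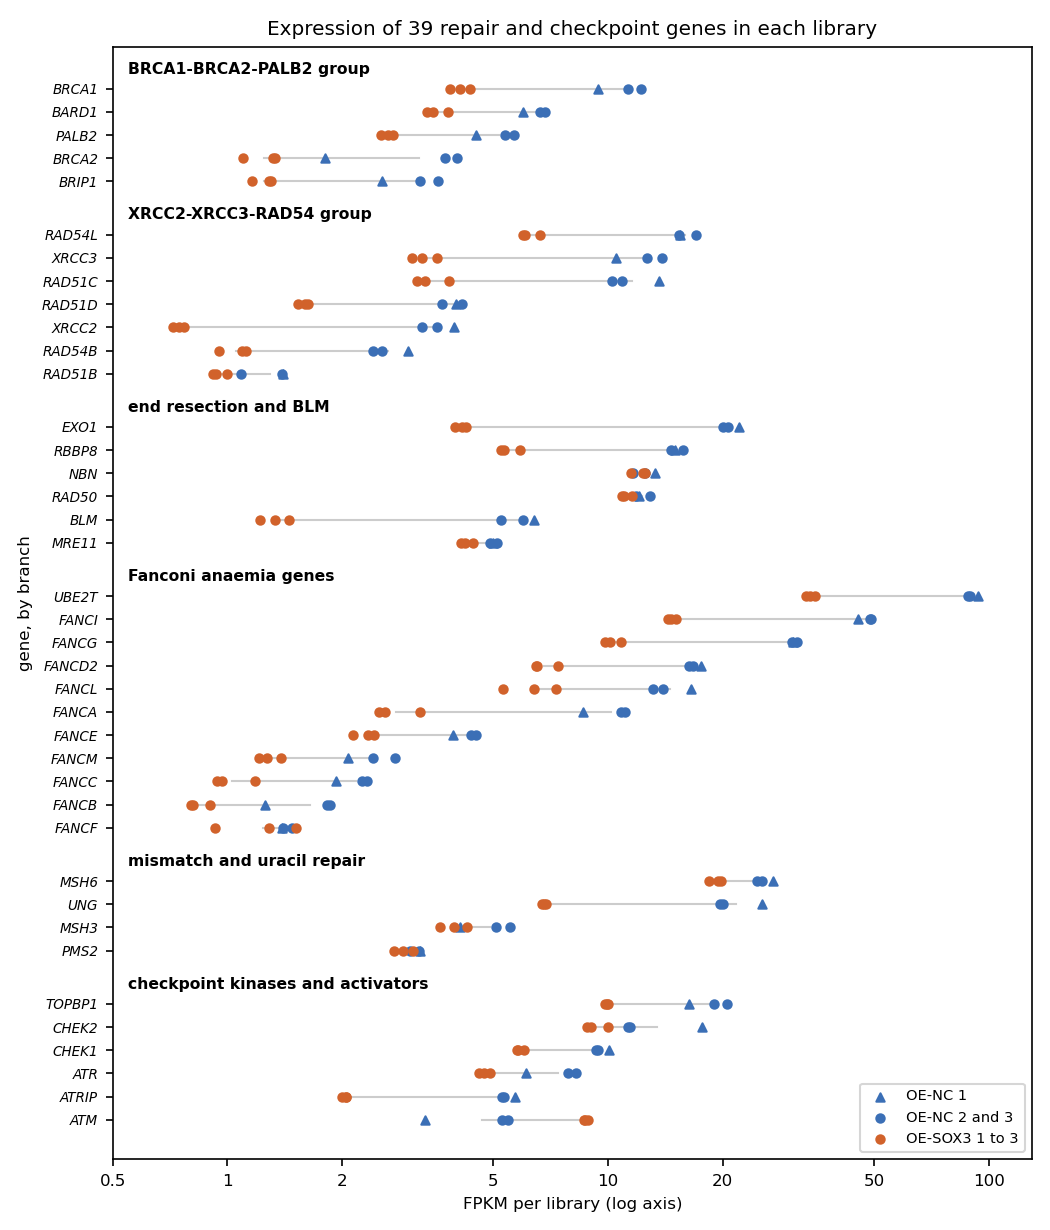
FPKM of each of the 39 genes in each library, on a log axis, grouped by role and ordered by the OE-NC mean. Triangles are OE-NC 1, blue circles OE-NC 2 and 3, orange circles the 3 OE-SOX3 libraries, and grey lines join the group means. The orange points lie left of the blue ones for 34 genes and right of them for ATM, and the groups overlap for NBN, FANCF, MSH3 and PMS2.

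All 5 genes around BRCA1, PALB2 and BRCA2 fell (36.1% of all tested genes did), at a median log2 fold change of -0.85. With 0.1 in place of 1 FPKM added, the median was -1.21, and that of the Fanconi anaemia genes given below was -1.19. The groups are therefore not ranked by their medians. BRCA1, a scaffold and ubiquitin ligase that steers breaks into recombination (chromosome 17, 43044295 to 43170245, minus strand, GRCh38), stood at 9.42, 11.3 and 12.2 FPKM in OE-NC and 3.84, 4.35 and 4.09 FPKM in OE-SOX3. The groups were well separated, and OE-NC 1 was the lowest of its group. The mean went from 10.97 ± 1.41 to 4.09 ± 0.259 FPKM (SD, n = 3 per group), 2.68-fold lower (log2 fold change -1.23, SE 0.10, limma adjusted p = 4.03e-05). Its partner BARD1, which completes the ligase, fell from 6.48 ± 0.459 to 3.54 ± 0.24 FPKM (log2 fold change -0.72, SE 0.07, limma adjusted p = 0.000128). The helicase BRIP1, which binds BRCA1, was at 2.55, 3.21 and 3.58 FPKM in OE-NC and 1.299, 1.28 and 1.16 FPKM in OE-SOX3, without overlap (log2 fold change -0.86, SE 0.10, limma adjusted p = 0.000205). PALB2, the bridge between BRCA1 and BRCA2, fell from 5.18 ± 0.601 to 2.64 ± 0.0951 FPKM (log2 fold change -0.76).

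BRCA2, which acts on the single-stranded DNA of the trimmed end (chromosome 13, 32315474 to 32400266, plus strand), had the widest interval of this group. Its values were 1.81, 3.74 and 4.02 FPKM in OE-NC and 1.098, 1.33 and 1.32 FPKM in OE-SOX3. OE-NC 1 was at 0.466 of the mean of OE-NC 2 and 3, and still above every OE-SOX3 library. The change was -0.85 on the log2 scale, with an SE of 0.21 and a limma adjusted p of 0.00902. Its OE-SOX3 mean was at 0.392 of its OE-NC mean, and that of BRCA1 at 0.373. Leaving out OE-NC 1 gave -1.12 (adjusted p = 1.84e-07), and adjusted p ran from 1.84e-07 to 0.0356 over 13 alternative treatments of the data.

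The group of RAD51B, RAD51C, RAD51D, XRCC2, XRCC3 and the RAD54 translocases acts in strand exchange. It fell in 7 of 7 genes (36.1% of all tested genes fell), at a median of -1.23. Of these, XRCC2 and RAD51B reached the minimum for testing only in OE-NC. XRCC3 stood at 10.5, 12.7 and 13.9 FPKM in OE-NC and 3.05, 3.24 and 3.55 FPKM in OE-SOX3 (log2 fold change -1.64, SE 0.10, limma adjusted p = 1.54e-05). Its exons share 76.7% of their bases with exons of KLC1, which fell from 43.9 to 32.6 FPKM, and the sources used here do not state whether counting used strand, so its value is uncertain. That share is over 7507 GENCODE exon bases, while the length recovered from the FPKM of XRCC3 was 2610 bases. Shares given below for other genes are also over GENCODE exons, which may not be those counted. RAD51C, the partner of XRCC3, was at 13.7, 10.9 and 10.2 FPKM in OE-NC and 3.82, 3.31 and 3.15 FPKM in OE-SOX3, 3.38-fold lower (log2 fold change -1.50, SE 0.12, limma adjusted p = 3.23e-05). No other annotated exon overlaps RAD51C, and its groups were far apart.

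XRCC2 (chromosome 7, 152644779 to 152676165, minus strand), which acts in a complex with RAD51D, was at 3.93, 3.55 and 3.24 FPKM in OE-NC and 0.769, 0.745 and 0.7204 FPKM in OE-SOX3. All 3 OE-SOX3 libraries were under 1 FPKM, and none of the OE-NC libraries was under 3. Its log2 fold change was -1.39 (limma adjusted p = 5.34e-06) and reached -2.25 among the alternatives. Reads recovered from the FPKM steps totalled 993 in OE-NC and 201 in OE-SOX3, which leaves 0.208 of the control level at equal depth (95% exact binomial interval 0.178 to 0.243, counting error only). RAD51D fell from 3.93 ± 0.242 to 1.59 ± 0.0485 FPKM.

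The translocase genes RAD54L and RAD54B fell from 15.9 ± 0.911 to 6.22 ± 0.358 FPKM and from 2.65 ± 0.299 to 1.06 ± 0.0914 FPKM. Exons of LRRC41, which rose, cover 25.1% of the exon bases of RAD54L, and exons of FSBP cover 59.1% of those of RAD54B, so both values are uncertain. RAD51B, which forms a complex with RAD51C, had the smallest change of the 7, from 1.29 ± 0.179 to 0.9498 ± 0.0416 FPKM (log2 fold change -0.23, SE 0.07, limma adjusted p = 0.0208). That call was kept in 9 of the 13 alternatives, with adjusted p from 0.000867 to 0.082. Among single libraries left out, it was lost at -0.20 without OE-NC 3 (adjusted p = 0.0657), -0.22 without OE-SOX3 1 (adjusted p = 0.0657) and -0.23 without OE-SOX3 3 (adjusted p = 0.064).

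End resection divided between the complex that starts it and the enzymes that act with or after it. EXO1, a 5′ to 3′ exonuclease that serves both resection and mismatch repair (chromosome 1, 241847967 to 241895148, plus strand), stood at 22.03, 20.02 and 20.6 FPKM in OE-NC and 4.23, 4.14 and 3.96 FPKM in OE-SOX3. With a 5.09-fold difference it had the largest log2 fold change of the 39 in size (log2 fold change -2.10, SE 0.06, limma adjusted p = 1.35e-06). BLM, the helicase that dissolves joined duplexes, was at 6.38, 5.99 and 5.25 FPKM in OE-NC and 1.45, 1.22 and 1.34 FPKM in OE-SOX3 (log2 fold change -1.55, SE 0.08, limma adjusted p = 6.35e-06). RBBP8, which encodes CtIP, the cofactor of MRE11 in trimming, was at 14.96, 14.7 and 15.7 FPKM in OE-NC and 5.34, 5.88 and 5.22 FPKM in OE-SOX3 (log2 fold change -1.31, SE 0.07, limma adjusted p = 6.04e-06). For all 3 genes the groups were far apart. GENCODE names a pseudogene after RBBP8 and another after MRE11, so some reads of both genes may be shared.

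MRE11, RAD50 and NBN differed far less between the groups. MRE11, the nuclease, fell from 5.002 ± 0.112 to 4.25 ± 0.151 FPKM (log2 fold change -0.19, SE 0.06, limma adjusted p = 0.0197). That call was kept in 9 of the 13 alternatives, with adjusted p from 0.00339 to 0.393, and not with every library scaled to the same sum of FPKM. It was also lost at -0.18 without OE-NC 3 (adjusted p = 0.065), -0.19 without OE-SOX3 2 (adjusted p = 0.0702) and -0.18 without OE-SOX3 3 (adjusted p = 0.0761). RAD50, the ATPase of the complex, was at 12.3 ± 0.518 and 11.2 ± 0.369 FPKM in OE-NC and OE-SOX3 and did not pass (log2 fold change -0.12, 95% interval -0.27 to 0.02, limma adjusted p = 0.11). It passed in 2 of the 13 alternatives, 1 of them without OE-NC 1 (-0.13, adjusted p = 0.0393), and 79.7% of its exon bases lie in exons of other annotated genes. NBN, the adaptor, was at 12.5 ± 0.82 and 12.1 ± 0.54 FPKM with overlapping groups (log2 fold change -0.04, 95% interval -0.20 to 0.13, limma adjusted p = 0.666). The intervals of RAD50 and NBN do not reach those of RBBP8, EXO1 or BLM.

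Among 11 Fanconi anaemia genes, 10 fell (36.1% of all tested genes did) and 1, FANCF, did not pass. FANCB, among those that fell, reached the minimum for testing only in OE-NC. The median was -1.09. FANCI, a subunit of the clamp that receives ubiquitin (chromosome 15, 89243949 to 89317261, plus strand), stood at 45.4, 49.2 and 48.6 FPKM in OE-NC and 15.1, 14.4 and 14.6 FPKM in OE-SOX3 (log2 fold change -1.63, SE 0.06, limma adjusted p = 2.35e-06). FANCD2, the other subunit (chromosome 3, 10026414 to 10101930, plus strand), was at 17.6, 16.7 and 16.3 FPKM in OE-NC and 7.37, 6.49 and 6.5 FPKM in OE-SOX3 (log2 fold change -1.20, SE 0.07, limma adjusted p = 1.07e-05). Both were lower in every OE-SOX3 library. A pseudogene in GENCODE is named after FANCD2, so some of its reads may be shared. UBE2T, the E2 enzyme of this step, had the highest mean level of the 39 and went from 90.5 ± 2.97 to 34.03 ± 0.957 FPKM, 2.66-fold lower (log2 fold change -1.39).

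FANCG, a core complex scaffold, was at 30.6, 31.4 and 30.5 FPKM in OE-NC and 10.8, 9.83 and 10.1 FPKM in OE-SOX3, 3-fold lower (log2 fold change -1.50, SE 0.06, limma adjusted p = 2.9e-06). FANCA, which binds FANCG, was at 8.59, 10.8 and 11.1 FPKM in OE-NC and 2.59, 2.51 and 3.201 FPKM in OE-SOX3 (log2 fold change -1.56, SE 0.12, limma adjusted p = 2.69e-05). Exons of ZNF276, which rose, cover 23.6% of the exon bases of FANCA. FANCL, the ubiquitin ligase subunit, fell from 14.6 ± 1.74 to 6.34 ± 1.01 FPKM. The other core genes, which are low enough for the added 1 FPKM to shrink their change, had log2 fold changes of -0.67 for FANCE, -0.64 for FANCC, -0.57 for the translocase FANCM and -0.52 for the X-linked FANCB. In recovered reads at equal depth, where nothing is added, the shares of the control level were 0.541, 0.473, 0.535 and 0.507 in that order (95% interval for FANCB 0.446 to 0.575, counting error only), so the 4 are not ranked here.

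FANCF, an adaptor of the core complex, was at 1.39, 1.48 and 1.401 FPKM in OE-NC and 0.926, 1.29 and 1.52 FPKM in OE-SOX3. The OE-SOX3 libraries spread on both sides of the OE-NC values (log2 fold change -0.12, 95% interval -0.35 to 0.11, limma adjusted p = 0.303). Only 273 and 230 reads stood behind the groups, and it passed in 1 of the 13 alternatives.

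Of the 4 mismatch and uracil repair genes, 2 fell and 2 did not pass, at a median of -0.33. With 36.1% of all tested genes falling, a count of 2 in 4 is near the general share. MSH6, part of the complex that reads single mismatches, was at 27.2, 25.5 and 24.7 FPKM in OE-NC and 19.4, 19.8 and 18.5 FPKM in OE-SOX3, without overlap (log2 fold change -0.40, SE 0.06, limma adjusted p = 0.00107). MSH3, its counterpart for larger loops (chromosome 5, 80654648 to 80876460, plus strand), was at 4.08, 5.52 and 5.08 FPKM in OE-NC and 4.26, 3.94 and 3.63 FPKM in OE-SOX3. OE-NC 1 lay among the OE-SOX3 values, at 0.77 of the mean of OE-NC 2 and 3. MSH3 did not pass (log2 fold change -0.25, SE 0.10, limma adjusted p = 0.0685) except in 3 of the 13 alternatives, among them the one without OE-NC 1 (-0.35, adjusted p = 0.000772; range over alternatives 0.000772 to 0.408).

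PMS2, the endonuclease subunit of mismatch repair (chromosome 7, 5973239 to 6009125, minus strand), was at 3.204, 3.19 and 3.02 FPKM in OE-NC and 3.07, 2.74 and 2.901 FPKM in OE-SOX3. Its groups overlapped (log2 fold change -0.08, 95% interval -0.23 to 0.06, limma adjusted p = 0.243), and it passed in 1 of the 13 alternatives. GENCODE lists 11 pseudogenes named after PMS2, so its reads may be shared and its value is uncertain. UNG, which removes uracil from DNA (chromosome 12, 109097574 to 109110992, plus strand), was at 25.3, 19.8 and 20 FPKM in OE-NC and 6.805, 6.72 and 6.87 FPKM in OE-SOX3, 3.19-fold lower (log2 fold change -1.53, SE 0.10, limma adjusted p = 1.69e-05). Its 3 OE-SOX3 values lie close together and far below the others, and 2 pseudogenes carry its name.

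**Figure D2:**
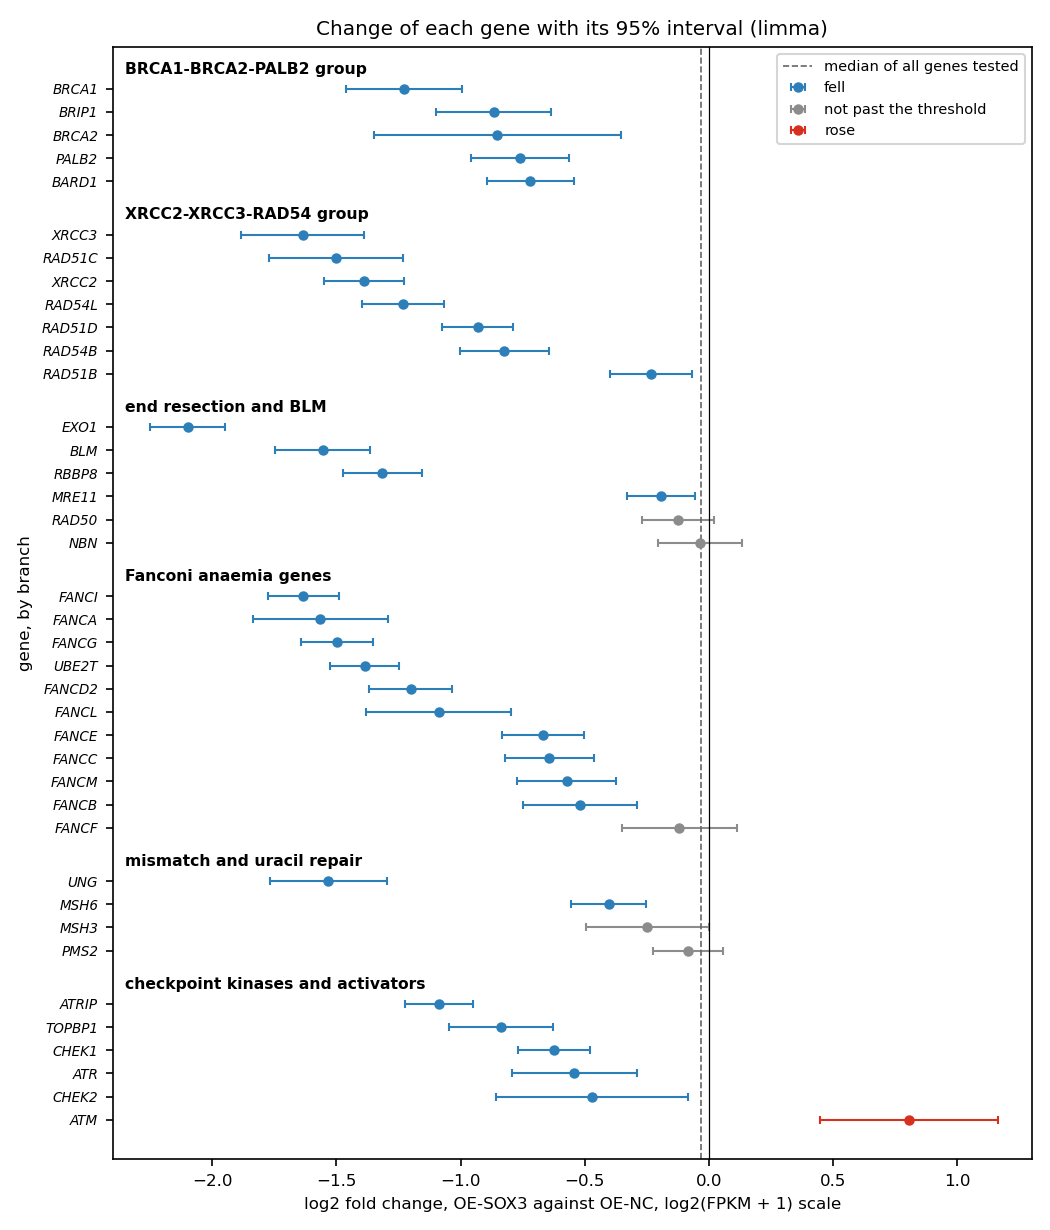
Log2 fold change of each gene in OE-SOX3 against OE-NC (horizontal axis, log2(FPKM + 1) scale) with its 95% interval from limma, grouped by role. Blue marks genes that fell, red the gene that rose, grey those not past the threshold, and the dashed line the median of all tested genes (-0.03). EXO1 lies farthest left at -2.10 and ATM is the only gene on the right, at 0.81.

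Of 6 checkpoint genes, 5 fell (36.1% of all tested genes did) and 1 rose (32.9%). ATM, the kinase activated by DNA breaks (chromosome 11, 108222484 to 108369102, plus strand), stood at 3.299, 5.46 and 5.26 FPKM in OE-NC and 8.64, 8.88 and 8.72 FPKM in OE-SOX3. The groups did not overlap, and the OE-SOX3 libraries were close together. The mean went from 4.67 ± 1.19 to 8.75 ± 0.126 FPKM (SD, n = 3 per group; log2 fold change 0.81, SE 0.15, limma adjusted p = 0.00258). OE-NC 1 was at 0.616 of the mean of OE-NC 2 and 3. Without it the change was 0.62 (adjusted p = 1.37e-06), and over all alternatives it lay between 0.60 and 1.02 (adjusted p from 1.37e-06 to 0.0129).

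ATR, the kinase for stalled forks (chromosome 3, 142449235 to 142578826, minus strand), fell, from 6.09, 7.87 and 8.26 FPKM to 4.73, 4.904 and 4.58 FPKM (log2 fold change -0.54, SE 0.11, limma adjusted p = 0.00307). Its obligate partner ATRIP was at 5.71, 5.33 and 5.28 FPKM against 1.996, 2.05 and 2.05 FPKM (log2 fold change -1.09, SE 0.06, limma adjusted p = 6.98e-06), with 27.9% of its exon bases in exons of TREX1. The ATR activator TOPBP1 was at 16.3, 18.9 and 20.6 FPKM against 9.82, 10.01 and 9.97 FPKM (log2 fold change -0.84, SE 0.09, limma adjusted p = 0.000144). All 3 were lower in every OE-SOX3 library. CHEK1, the kinase downstream of ATR (chromosome 11, 125625136 to 125676255, plus strand), was at 10.1, 9.299 and 9.41 FPKM in OE-NC and 6.03, 5.77 and 5.82 FPKM in OE-SOX3, also without overlap (log2 fold change -0.62, SE 0.06, limma adjusted p = 9.78e-05).

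CHEK2, the kinase downstream of ATM (chromosome 22, 28687743 to 28742422, minus strand), stood at 17.7, 11.4 and 11.3 FPKM in OE-NC and 9.98, 9.001 and 8.803 FPKM in OE-SOX3. OE-NC 1 was at 1.56 of the mean of OE-NC 2 and 3, and the groups did not overlap with or without it. The change of -0.47 (SE 0.16, limma adjusted p = 0.0363) became -0.27 when OE-NC 1 was left out (adjusted p = 0.00166). The call was kept in 7 of the 13 alternatives, with adjusted p from 0.00166 to 0.107. With single libraries left out it was lost at -0.52 without OE-SOX3 1 (adjusted p = 0.0622), -0.45 without OE-SOX3 2 (adjusted p = 0.1) and -0.44 without OE-SOX3 3 (adjusted p = 0.107). GENCODE lists 4 pseudogenes named after CHEK2, so its reads may be shared.

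Ratios of FPKM between partner genes were taken within each library for 10 pairs. The ATM to ATR ratio was 0.541, 0.694 and 0.636 in OE-NC and 1.83, 1.81 and 1.9 in OE-SOX3, a 2.98-fold difference. In FPKM, ATM was the lower of the pair in every control library and the higher in every OE-SOX3 library. Which gene of a pair is higher depends on the gene lengths used for FPKM, so only the change of a ratio is read here. The RBBP8 to MRE11 ratio went from 3.01, 2.99 and 3.07 to 1.21, 1.39 and 1.27, and RAD51C to RAD51B from 9.75, 10 and 7.33 to 4.16, 3.32 and 3.37. The others that were lower in every OE-SOX3 library were ATRIP to ATR, BRCA1 to BARD1 and FANCI to FANCD2, at 0.579, 0.686 and 0.767 of the control ratio. These 6 pairs each gave an exact permutation p of 0.1 (two-sided), the smallest that 3 against 3 libraries allow, and 0.167 adjusted over the 10 pairs. For CHEK1 to CHEK2, BRCA1 to BRCA2, MSH6 to MSH3 and RAD54L to RAD54B the groups overlapped, with exact permutation p from 0.4 to 1.

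**Figure D3:**
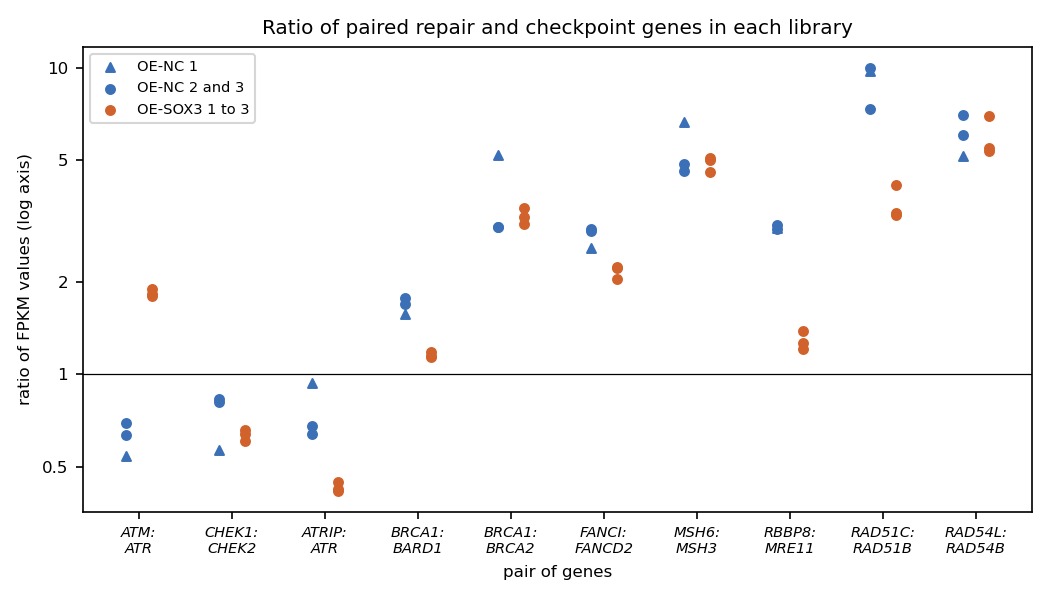
Ratio of FPKM between the genes of each of 10 pairs in each library, on a log axis, with a line at a ratio of 1. Triangles are OE-NC 1, blue circles OE-NC 2 and 3 and orange circles OE-SOX3. ATM to ATR is the only pair whose OE-NC and OE-SOX3 libraries lie on opposite sides of the line, a position that depends on the gene lengths used for FPKM.

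Many repair genes start head to head with a neighbour on the opposite strand, with a short stretch between the starts. For 9 of the 39, a tested neighbour was compared whose outermost start lay within 1000 bases of their own (GENCODE 29, GRCh38). Of these neighbours, 2 fell (36.1% of all tested genes did), 2 rose (32.9%) and 5 did not pass. PMS2 starts 120 bases from AIMP2, a scaffold of the tRNA synthetase complex. AIMP2 was at 30, 25.1 and 24.4 FPKM in OE-NC and 9.19, 9.39 and 8.76 FPKM in OE-SOX3 (log2 fold change -1.44, limma adjusted p = 1.32e-05), and PMS2 did not pass. AIMP2 was lower in every OE-SOX3 library, while the values of PMS2 overlapped. Reads of PMS2 may be shared with its pseudogenes, so this contrast is uncertain.

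In the other pairs the repair gene passed and its neighbour did not, or went the other way, except beside PALB2. ATM rose, while NPAT, an activator of histone genes 158 bases away, was at 2.79, 3.96 and 4.38 FPKM in OE-NC and 2.78, 2.999 and 2.91 FPKM in OE-SOX3 and did not pass (log2 fold change -0.26, limma adjusted p = 0.111). XRCC3 fell, with ZFYVE21 at 21.4 and 20.1 FPKM (log2 fold change -0.08, not past), though the value of XRCC3 is uncertain for its overlap with KLC1. FANCB fell and MOSPD2 rose (log2 fold change 0.54), and BRCA1 fell and NBR1 rose (0.44), although BRCA1 has 2 RefSeq starts 44963 bases apart and NBR1 lies by the outer one. PALB2 and the dynactin subunit gene DCTN5 both fell (-0.76 and -0.52). Beside MRE11, FANCM and CHEK2, the neighbours ANKRD49, FKBP3 and HSCB did not pass.

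The ratio of repair gene to neighbour, taken within each library, overlapped between groups for FANCM to FKBP3 (exact permutation p = 0.2) and for no other of the 9 pairs. Each of the others had an exact permutation p of 0.1 (two-sided, the smallest possible), or 0.113 adjusted over the 9. In OE-SOX3 the ratio was 2.68-fold higher for PMS2 to AIMP2 and 2.41-fold for ATM to NPAT, and it was at 0.273 of the control ratio for BRCA1 to NBR1.

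**Figure D4:**
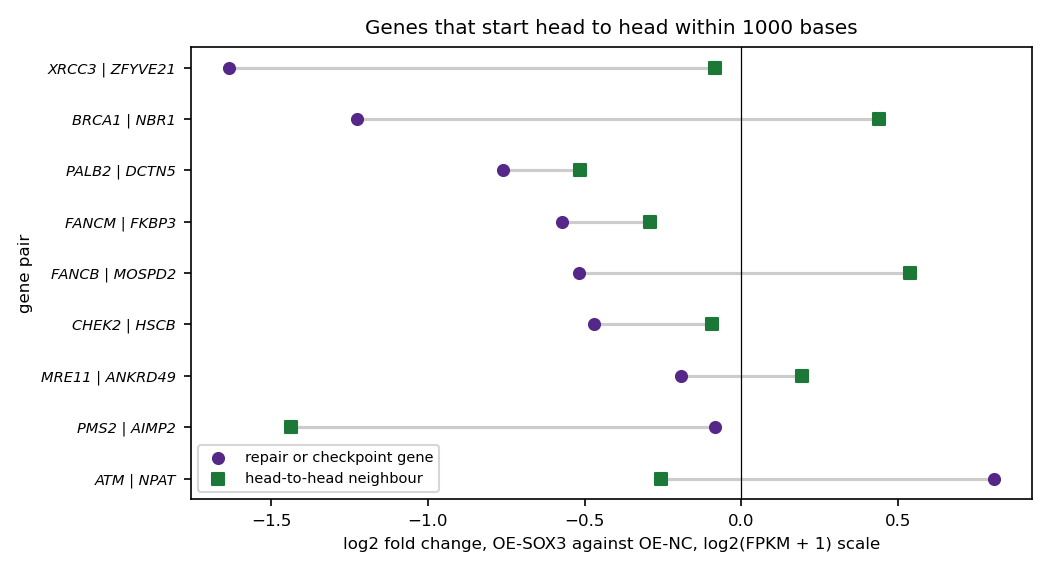
Log2 fold change (log2(FPKM + 1) scale) of 9 repair or checkpoint genes (circles) and of the tested gene that starts head to head with each (squares), joined by a line. PMS2 lies near 0 with AIMP2 far to the left, at -1.44, and ATM lies right of 0 with NPAT left of it.

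RefSeq promoters were found for 36 of the 39 genes, as 53 windows reaching from 250 bases before to 50 bases after a start. The E2F letters were TTTCCCGC, TTTGGCGC, TTTCGCGC and TTTGCCGC, on both strands. They were in 11 of the 53 windows (20.8%), in 3.3% of all 35116 promoters and in 5.1% of 13415 promoters of tested genes. The 10 genes with a match were EXO1, FANCA, FANCC, FANCD2, MSH6, TOPBP1, UNG and XRCC2, which fell, and MSH3 and PMS2, which did not pass. Genes with a promoter but no match fell as well, among them BRCA1, BLM, FANCG, XRCC3, RAD51C and RBBP8. The exceptions were RAD50 and FANCF, which did not pass, and ATM, which rose. Genes thus fell both with and without a match, and a link between match and change was not tested. The value of PMS2 is uncertain, as given above. The letters CCAAT were in 47.2% of the windows (34.6% of all promoters and 35.0% of those of tested genes). The CHR letters known from late cell cycle genes, TTTGAA and the related form TTCGAA, were in 9.4% (16.4% and 11.9%). The SOX letters, searched as ACAATG and also as AACAAT and likewise ACAAAG, were in 9.4% (29.1% and 20.3%). A match is a description of letters and says nothing of binding.

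Further genes of these pathways were taken by pathway membership. The counts below stand beside 36.1% of all tested genes that fell and 32.9% that rose. Of 17 further mismatch repair genes, many of which also serve replication, 15 fell, 0 rose and 2 did not pass (median log2 fold change -1.16). Among them the ligase LIG1 fell from 24.5 to 8.42 FPKM, the polymerase delta subunit POLD3 from 15.2 to 4.77 FPKM and the clamp loader subunit RFC2 from 58.7 to 14.5 FPKM. Of 13 further checkpoint genes, 9 fell, 3 rose and 1 did not pass (median -0.81). The phosphatase CDC25A fell from 5.004 to 0.558 FPKM, the fork protector TIMELESS from 22.6 to 6.25 FPKM and CLSPN, which presents CHEK1 to ATR, from 8.98 to 1.45 FPKM. CDC25A reached the minimum for testing only in OE-NC, so only a fall could bring it into the test.

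Of 31 tested further homologous recombination genes, 20 fell, 2 rose and 9 did not pass (median log2 fold change -0.51). The ATPase FIGNL1 fell from 8.04 to 2.88 FPKM and the helicase RECQL4 from 21.6 to 5.03 FPKM. Of 15 tested further Fanconi and crosslink repair genes, 8 fell, 3 rose and 4 did not pass (median -0.29). The ubiquitin ligase RFWD3 fell from 17.9 to 6.71 FPKM, the nuclease DCLRE1B from 12.1 to 2.96 FPKM and the core complex partner FAAP24 from 4.14 to 1.83 FPKM.

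Lists for other repair routes had medians nearer to 0 than the 39 genes, a difference that was not tested. The further homologous recombination and Fanconi lists did too, so the contrast is with the 39 chosen genes and not between repair routes. Of 19 base excision repair genes, 12 fell, 2 rose and 5 did not pass (median log2 fold change -0.38). The strand-break sensor PARP1 fell from 104 to 38.9 FPKM and the glycosylase NEIL3 from 13.8 to 5.91 FPKM. NEIL1, a relative of NEIL3, rose from 0.246 to 1.65 FPKM. It reached the minimum for testing only in OE-SOX3, so only a rise could bring it into the test. Of 14 tested end-joining genes, 8 fell, 3 rose and 3 did not pass (median -0.28). XRCC5, which encodes the Ku80 end-binding subunit, fell from 172 to 76.4 FPKM and the nuclease DCLRE1C from 2.66 to 1.76 FPKM, and the polymerase POLL rose from 5.02 to 8.25 FPKM. Of 12 tested nucleotide excision repair genes, 3 fell, 4 rose and 5 did not pass (median -0.03). The rises include a gene that reached the minimum for testing only in OE-SOX3. Over all tested genes, 36.1% fell and 32.9% rose, so counts this small do not set this route apart. DDB2, a sensor of ultraviolet damage, rose from 10.8 to 25.7 FPKM, and RAD23B, a damage recognition subunit, fell from 60.9 to 43.8 FPKM and the helicase ERCC2 from 18.1 to 12.8 FPKM.

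OE-NC 1 relative to OE-NC 2 and 3 followed gene length among the 39 (Spearman correlation -0.461 over 39 genes that share the same libraries, a description) as among all tested genes (-0.508). It was low for the long genes BRCA2 (0.466) and ATM (0.616) and high for the short CHEK2 (1.56). Length also correlated at 0.438 with the log2 fold change of the 39, and at 0.239 over all tested genes. With the length trend removed within each library, 34 of the 39 fell, and ATM rose by 0.60 on the log2 scale. Without OE-NC 1, 35 fell and 1 rose. Scaling every library to the same sum of FPKM moved the median of all tested genes to 0.12, and 59.2% of all calls were then rises, against 47.7% before. Under that scaling 30 of the 39 fell and 1 rose.

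**Figure D5:**
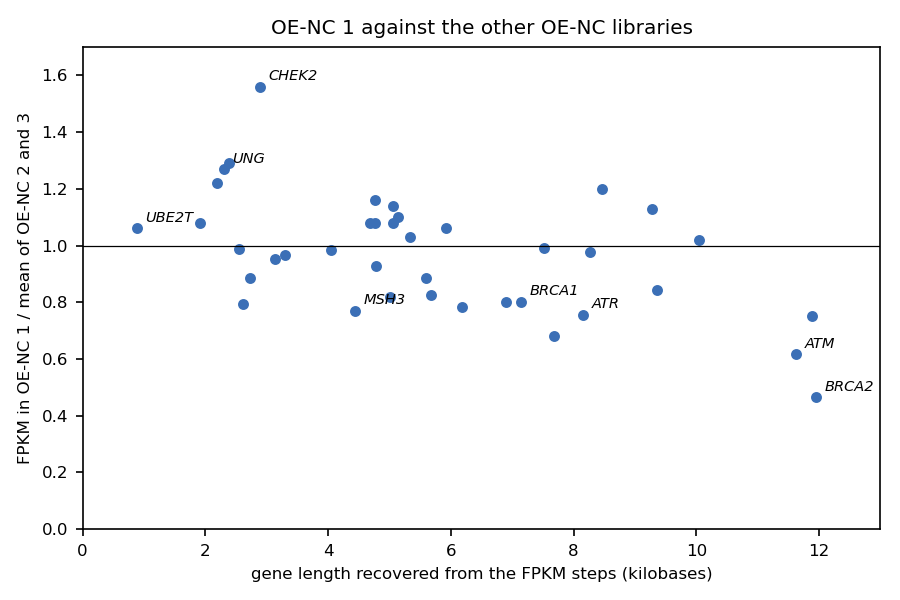
FPKM in OE-NC 1 divided by the mean of OE-NC 2 and 3 (vertical axis) for each of the 39 genes, against the gene length in kilobases recovered from the FPKM steps (horizontal axis). The line marks a ratio of 1. BRCA2 (0.466) and ATM (0.616) lie lowest, at the right, and CHEK2 (1.56) highest, at the left.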

How the data were processed

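RNA of 6 KGN libraries was prepared for sequencing on an Illumina HiSeq, per the labels' protocols. The authors deposited a table of expression values without a unit in its header. They were taken as FPKM because whole reads and a whole gene length fitted the deposited FPKM of all 13584 genes above 0 in every library (within 0.02 reads, at least 1 read in each). For genes with very few reads such a fit is easily met and says little. HISAT2, HTSeq, RSEM and hg38 are listed without roles, per the submitters' processing notes. Annotation, read layout and strand use are not stated there.

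OE-SOX3 was compared with OE-NC by limma-trend on log2(FPKM + 1) over 11131 genes (limma 3.58.1, R 4.3.3), two-sided, with Benjamini-Hochberg adjustment over all of them. The fit was tested on simulated reads, independent between libraries and with the same dispersion of 0.01 for every gene. They held no outlying library and no length trend, so that run does not bear on OE-NC 1. Recovered reads gave depth, 95% counting intervals and a limma-voom alternative. Reads are not independent molecules, so intervals cover counting error only. Chi-square over degrees of freedom was 1.76 between OE-NC 2 and 3, 2.09 between OE-SOX3 2 and 3 and 4.64 to 61.5 for other pairs within a group, where counting error gives about 1. All were kept as separate libraries. The labels do not say what a replicate number marks. Deviations of same-numbered libraries from their group means correlated at 0.486, 0.243 and 0.25, although OE-NC 3 correlated best with OE-SOX3 2. Deviations within a group of 3 balance out, so these values are not separate signs of pairing, and pairing stays undecided. The genes, branches, pairs and lists were chosen with earlier results of these data known, and some genes are not reported here. Library values are given for the 3 called genes of each branch with the largest changes and for the BRCA, ATM, ATR, CHEK, FANCD2, FANCI and mismatch genes. Those of FANCF, AIMP2 and NPAT were added after their values were seen. Genes outside the 39 are named by smallest adjusted p in their list. Positions are from GENCODE 29 and promoters from RefSeq. Python 3.11.15, NumPy 2.4.6, pandas 2.3.3 and matplotlib 3.10.9 were used.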

Additional observations from a re-analysis of the deposited data

How the results depend on the processing

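Of 507 values recomputed for the 39 genes under 13 alternatives, 481 kept their direction and their side of the threshold, 14 lost the call, 7 gained one and 5 changed sign. In the main treatment and all 13 alternatives, 30 genes fell and ATM rose. The sign changes were in genes that did not pass: RAD50 (0.010), NBN (0.103) and PMS2 (0.029) with every library scaled to the same sum of FPKM, and NBN under quantile normalization (0.052) and, among fits without 1 library (-0.082 to 0.006), without OE-NC 1. The count that fell was 30 to 36. With the replicate number as a block, 33 fell and 1 rose, and the block changed no call among the 39.

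Medians moved by more than the spread between libraries in some settings, without changing sign. With a pseudocount of 0.1 they were -1.19 for all 39, -1.21 for the BRCA1, BRCA2 and PALB2 group, -1.345 for the XRCC and RAD54 group, -0.84 for end resection and -0.66 for checkpoint genes. On recovered reads they were -1.20, -1.27, -1.36, -0.85 and -0.67, and -0.36 for mismatch and uracil repair. With equal sums of FPKM they were -0.96 for the BRCA1 group, -1.17 for the XRCC and RAD54 group, -0.68 for end resection, -0.21 for mismatch and uracil repair and -0.50 for checkpoint genes. Quantile normalization gave -0.99 for all 39 and for the BRCA1 group, -1.17 for the XRCC and RAD54 group and -0.26 for mismatch and uracil repair. Removing the length trend gave -1.06 for the BRCA1 group, -1.13 for the XRCC and RAD54 group, -0.90 for Fanconi genes and -0.67 for checkpoint genes. Leaving out 1 library gave -0.97 to -0.74 for the BRCA1 group and -0.36 to -0.29 for mismatch and uracil repair. The cause was not tested. FANCF, near 1 FPKM, rests on few reads.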
